A study of Mus musculus with 2 samples.

Results

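The Bcl2 family decides at the mitochondrion whether a cell survives, and 10 of its genes were followed here in CD4+ T cells of LatY136F mice against wildtype mice: Pmaip1, Bcl2l11, Bad, Bid and Bbc3 (BH3-only), Bax and Bak1 (effectors), and Bcl2, Bcl2l1 and Mcl1 (survival). A member was taken where a probe of the array had that gene's symbol as its only symbol in the platform annotation. Of the 10 genes, 8 had such a probe, with 9 probes between them, among 4331 genes and 8014 probes in all. Bbc3 and Bax had no such probe and were not analysed here, so 4 of 5 BH3-only genes, 1 of 2 effectors and all 3 survival genes were measured.

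Total RNA of splenic CD4+ alpha beta T cells from LatY136F and from wildtype animals was hybridised together on 2 two-colour arrays. LatY136F mice carry a tyrosine-to-phenylalanine change in Lat, the adaptor that links the T cell receptor to its signalling pathways, and are known for accumulating CD4+ T cells of the T helper 2 type. Cells of both genotypes were enriched with anti-CD4 beads and a cell sorter. The sources used here give no strain, age or number of mice and do not say whether animals were pooled. On array 1 the LatY136F RNA was in channel 2, and on array 2 it was in channel 1. Since nothing says that the arrays held separate extracts, they count as 1 comparison, and no p-value is given. Values are log2 ratios, and ± is 0.5 times the difference between the arrays, which is not a spread between animals.

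The ratio's direction is not stated outright in the labels. Titles name array 1 (+pol) as wildtype vs. LatY136F and array 2 (-pol) as LatY136F vs. wildtype. They do not say which side is the numerator. Values were read as channel 2 over channel 1 and array 2 was multiplied by -1, so that each ratio is LatY136F over wildtype. This reading is called likely because the T helper 2 genes Gata3 (2.93 ± 0.02), Il13 (3.39 ± 0.27), Il17rb (2.19 ± 0.04), Il10 (1.22 ± 0.11) and Il5 (1.14 ± 0.28) then lie above 0 on both arrays; Il4 gave 1.41 and -0.97. With the other reading, every "higher" below becomes "lower". Before array 2 was turned, Pearson's r between the arrays was -0.21 and Spearman's rho -0.06 over 8014 probes, which are not independent replicates. After turning, Pearson's r was 0.33 and Spearman's rho 0.16 over 4331 genes, so the arrays agreed only weakly in rank. Turning changes only the sign of these values, and their larger size comes from the step from 8014 probes to 4331 genes. How bright each probe was is not in the table, so the precision of single ratios is unknown and is limited by the number of arrays.

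BH3-only proteins sense damage or loss of survival signals and bind the survival proteins through a short helix called BH3. Survival proteins (Bcl-2, Bcl-xL from Bcl2l1, and Mcl-1) hold the effectors Bax and Bak in check. Freed effectors form pores in the outer mitochondrial membrane, which releases cytochrome c and starts the caspases. In T cells, Bcl-2 is tied to cytokine survival signals, and Bim, the product of Bcl2l11, is known for removing T cells after an immune response and self-reactive cells in the thymus.

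Of the 8 measured members, Pmaip1 alone was called, which means a difference of 2-fold or more in 1 direction on each array, and it was higher in LatY136F cells. The 3 survival genes all lay below 0 on both arrays by small amounts, and none of them reached 1.5-fold on both. Bad stood slightly above 0 on both. Bcl2l11, Bid and Bak1 gave opposite signs on the 2 arrays, so no direction can be given for them. Of all 4331 genes, 4.2% were called higher and 0.97% lower; 1 of 8 members higher and 0 of 8 lower is read against these shares. At 1.5-fold in place of 2-fold the members' counts were the same, against 7.83% of all genes higher and 2.93% lower.

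**Figure D1:**
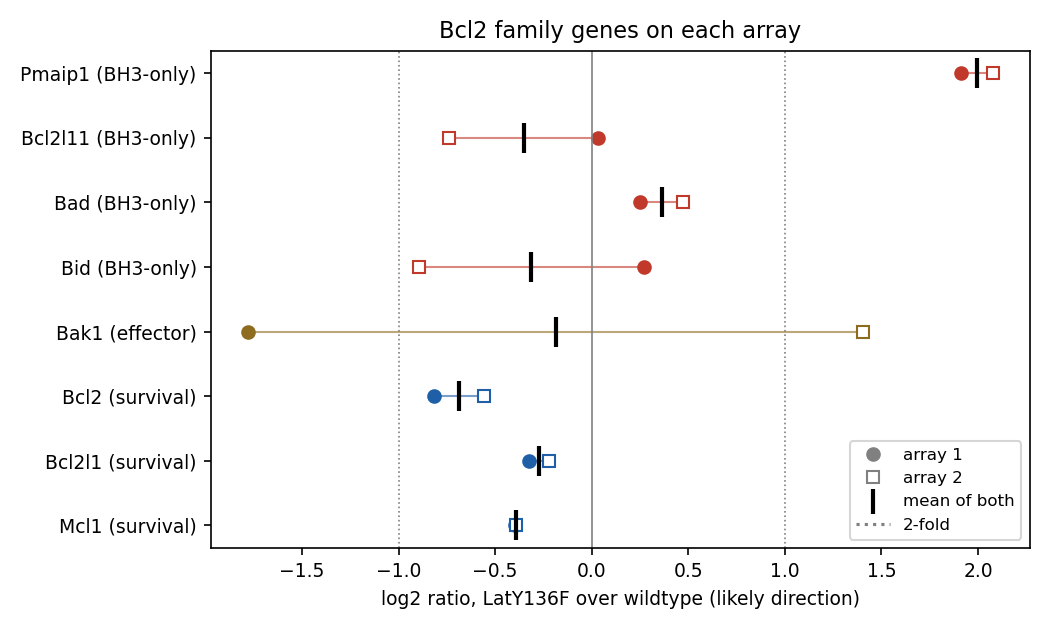
Log2 ratio of LatY136F over wildtype (horizontal axis, likely direction) for the 8 measured Bcl2 family genes, with array 1 as filled circles, array 2 as open squares and the mean as a bar; dotted lines mark 2-fold. Pmaip1 lies near 2 on both arrays, the 3 survival genes lie between -0.82 and -0.22, and the arrays of Bak1 lie on opposite sides at -1.78 and 1.41.

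Among the BH3-only genes, Pmaip1 encodes Noxa, which binds mainly Mcl-1 and is a target of p53. Its ratio was 1.91 on array 1 and 2.08 on array 2. Both arrays put it near 4-fold higher in LatY136F cells, at 3.98-fold by the mean (1.99 ± 0.08), and the arrays differed little. It ranked 56th from the top of 4331 genes. The ratio comes from mixed RNA of a cell preparation, in which more cells expressing a gene and more of its RNA per cell cannot be told apart. Markers of other cell types differed in the same comparison. Among 16 markers of monocytes and macrophages 7 were called higher and 0 lower (median 1.16), of 7 neutrophil markers 3 were higher and 0 lower (median 1.02), and of 14 B cell markers 0 were higher and 8 lower (median -1.27). Of 7 natural killer and CD8 T cell markers 2 were lower and 0 higher (median -0.47), and of 5 dendritic cell markers 1 was higher and 0 lower (median 0.08). Of 10 CD4 T cell markers none was called (median -0.09), with Cd247 lowest at -0.88 and Cd5 highest at 0.81; Cd4 itself stood at -0.17 ± 0.09 and Cd3e at -0.01 ± 0.13. Ratios do not show whether a marker is present or absent. The part of these cells in the Pmaip1 ratio, or in any ratio below, was not tested.

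Bad encodes a BH3-only protein that growth factor kinases hold inactive by phosphorylation. It gave 0.25 on array 1 and 0.47 on array 2, a mean of 0.36 ± 0.11, or 1.29-fold higher. It was above 0 on both arrays, as were 30.3% of all genes, but it stayed far below the 2-fold line.

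Bcl2l11, the gene of Bim, gave 0.03 on array 1 and -0.74 on array 2. Array 1 put it at no difference and array 2 at 1.67-fold lower, so its mean of -0.35 ± 0.39 has no direction. Bid encodes a protein that caspase-8 cleaves, which ties death receptors to the mitochondrion. Bid gave 0.27 on array 1 and -0.89 on array 2, with a mean of -0.31 ± 0.58. For both genes the spread between the arrays exceeded the mean.

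Bak1, the measured effector, was the member on which the arrays disagreed most. It gave -1.78 on array 1 (3.43-fold lower) and 1.41 on array 2 (2.65-fold higher), and the mean of -0.19 ± 1.59 therefore describes neither array. Its spread between arrays was the 43rd widest of 4331 genes. A 2-fold or larger difference in opposite directions was seen for 1.73% of all genes and for 1 of 8 members, Bak1. As deposited, before array 2 was turned, the log10 ratios of Bak1 were -0.54 and -0.42, which carry the same sign although the genotypes had changed channels. Those of Bid were 0.08 and 0.28 and those of Bcl2l11 0.0068 and 0.23. Opposite signs after turning were seen for 44.2% of all genes and for 3 of 8 members.

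**Figure D2:**
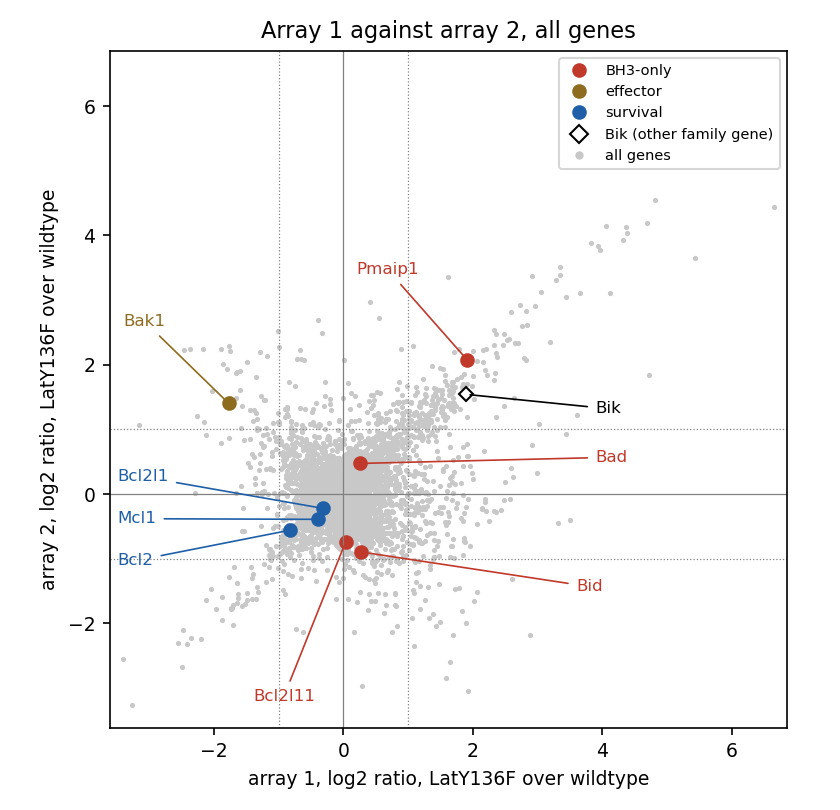
Log2 ratio of LatY136F over wildtype on array 1 (horizontal) against array 2 (vertical) for 4331 genes in grey, with Bcl2 family members coloured by role and Bik, another BH3-only gene, as a diamond; dotted lines mark 2-fold. Pmaip1 and Bik lie in the upper right, Bcl2, Bcl2l1 and Mcl1 lie together at the lower left of the centre, and Bak1 lies in the upper left where the arrays disagree.

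The survival genes were more alike. Bcl2 encodes the founding survival protein of the family. Averaged over its 2 probes it gave -0.82 on array 1 and -0.56 on array 2, a mean of -0.69 ± 0.13, or 1.61-fold lower in LatY136F cells. It was the lowest member and ranked 147th from the bottom of 4331 genes. The 2 probes differed in size. The probe annotated to the transcript NM_009741 gave -1.04 and -0.81 (mean -0.93 ± 0.11), past 1.5-fold on both arrays, while the probe annotated to the sequence BB239129 gave -0.60 and -0.30 (mean -0.45 ± 0.15). Both probes lay below 0 on both arrays. B cells also express Bcl2 family genes, and the B cell markers were lower as given above; their part was not tested.

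Mcl1 encodes a short-lived survival protein that T cells need. It gave -0.40 on array 1 and -0.39 on array 2, the closest pair of values of any member (mean -0.39 ± 0.0036, 1.31-fold lower). Bcl2l1, the gene of Bcl-xL, gave -0.32 and -0.22 (mean -0.27 ± 0.05, 1.21-fold lower). All 3 survival genes were thus below 0 on both arrays, and 25.5% of all genes were. No survival gene passed 2-fold or 1.5-fold on both arrays.

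The promoters of the 3 survival genes are shown from RefSeq (GRCm38.p6), as the 250 bases before the annotated start, 5′ to 3′ on the gene's strand. Bcl2 lies at chr1:106714291-106714540 (minus strand), Mcl1 at chr3:95658471-95658720 (plus strand) and the stretch shown for Bcl2l1 at chr2:152830718-152830967 (minus strand). Bcl2l1 has 3 promoters in the table, and the one that holds a match is shown. Capitals mark matches, on either strand, to 4 motifs: TTCNNNGAA (bound by STAT factors), TGACG (part of the cAMP response element), GTAAACA (forkhead) and an NF-kB motif of GGG, 2 bases of any kind and TTTCC. No match overlapped another in the stretches shown.
Bcl2: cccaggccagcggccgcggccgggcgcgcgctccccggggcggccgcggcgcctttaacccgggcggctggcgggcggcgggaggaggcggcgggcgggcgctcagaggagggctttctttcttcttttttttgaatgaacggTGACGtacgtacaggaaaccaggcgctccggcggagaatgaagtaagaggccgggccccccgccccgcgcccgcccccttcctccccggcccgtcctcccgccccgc
Mcl1: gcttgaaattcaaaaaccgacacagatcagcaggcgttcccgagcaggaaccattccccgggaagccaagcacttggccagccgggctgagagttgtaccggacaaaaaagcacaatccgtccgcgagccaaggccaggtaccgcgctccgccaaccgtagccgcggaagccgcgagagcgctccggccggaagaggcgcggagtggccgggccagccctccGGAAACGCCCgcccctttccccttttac
Bcl2l1: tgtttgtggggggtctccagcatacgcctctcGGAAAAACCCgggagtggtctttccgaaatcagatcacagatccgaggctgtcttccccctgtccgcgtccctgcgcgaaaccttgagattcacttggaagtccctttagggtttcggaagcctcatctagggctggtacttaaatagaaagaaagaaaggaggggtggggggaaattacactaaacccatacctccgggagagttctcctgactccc
The capitals in Bcl2 are the TGACG motif, which 17.8% of 32851 promoters of this length hold. Those in Mcl1 and Bcl2l1 are the NF-kB motif on the reverse strand, which 1.41% of promoters hold. Among the members, promoters of 9 of 10 genes were searched, 15 in all, and none of Pmaip1 was. Promoters of a single chromosome were left out of this search but not of the shares over all promoters. The NF-kB motif was found in 3 of the 15 (Mcl1, Bcl2l1 and the unmeasured Bbc3). The forkhead motif (3.17% of promoters) was found in 2 and TGACG in 2 of the 15. TTCNNNGAA (7.02% of promoters) was found in none of these windows. A match describes letters and not binding, and the arrays hold no measure of binding.

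Set side by side by role, the survival genes had a median of -0.39, and -0.40 and -0.39 on the single arrays. The 4 BH3-only genes had a median of 0.03, with 0.26 on array 1 and -0.13 on array 2, and their means ran from -0.35 to 1.99. Bak1 stood alone for the effectors. The median over all genes was 0.0004, and that over the 8 members was -0.29. The arrays had the same sign for 5 of the 8 members and for 55.8% of all genes. The value after ± had a median of 0.12 over the members and 0.15 over all genes.

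Within each array, the difference between a death-promoting gene's log2 ratio and a survival gene's log2 ratio can be taken for 15 pairs. It was above 0 on both arrays for 6 pairs, below 0 on both for none, and of opposite sign on the arrays for 9. The 6 pairs are those of Pmaip1 and Bad with each survival gene. Their sign was fixed by the values above, since Pmaip1 and Bad lay above 0 and the survival genes below 0 on both arrays. The count of 6 therefore adds nothing to those values. Pmaip1 exceeded Mcl1, the partner that Noxa binds, by 2.31 on array 1 and 2.47 on array 2, so the ratio between the 2 transcripts was 5.23-fold higher in LatY136F cells. Against Bcl2 the difference was 2.68 ± 0.05 and against Bcl2l1 2.27 ± 0.03. Bad exceeded Bcl2 by 1.05 ± 0.02, Mcl1 by 0.76 ± 0.11 and Bcl2l1 by 0.63 ± 0.06. These pairs share their genes and are not independent, and a difference of ratios says nothing of which transcript is more abundant. The pairs of Bcl2l11, Bid and Bak1 had no direction.

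Other genes of the family came from a list of 14, of which 5 were measured. Bik, a BH3-only gene, gave 1.90 on array 1 and 1.54 on array 2, a mean of 1.72 ± 0.18, or 3.29-fold higher, and was the only one called. Hrk, another BH3-only gene, stood at 0.09 ± 0.03. Bcl2l2, the gene of the survival protein Bcl-w, stood at 0.32 ± 0.04, the opposite side of 0 from the other survival genes. Bok, an effector-like member, stood at -0.26 ± 0.02, and Bcl2l10 gave -0.01 and 0.33 (0.16 ± 0.17). Bnip3 (-0.18 ± 0.04) and Bnip3l (-0.27 ± 0.04), which act in removal of mitochondria, were not called. The Bcl2a1 genes, Bmf and the rest of the list were not analysed here.

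**Figure D3:**
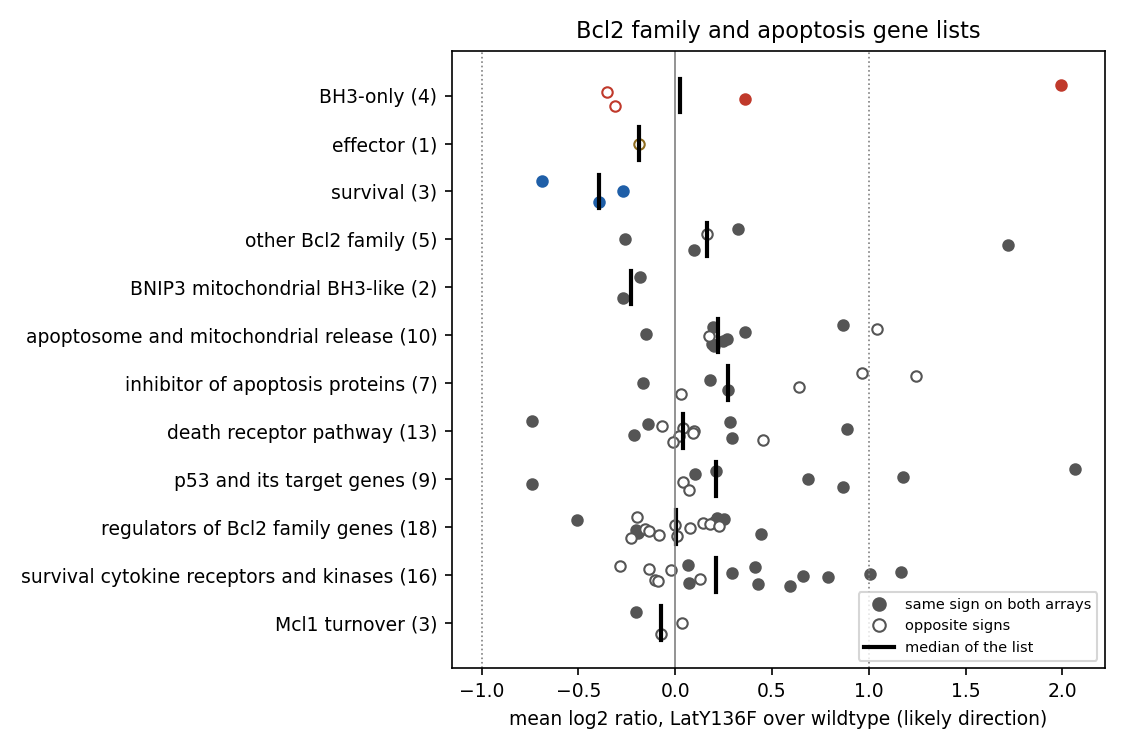
Mean log2 ratio of LatY136F over wildtype (horizontal axis, likely direction) for each measured gene of the Bcl2 family roles and of 9 related lists, with the number measured in brackets; filled points had the same sign on both arrays, open points opposite signs, and bars are medians. Most genes lie within 2-fold (dotted lines), with Pmaip1 and Bik to the right in their rows and all 3 survival genes to the left of 0.

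Around the family, 9 lists held 118 genes, of which 80 were measured. The calls among these 80 were 4 higher and 0 lower. That is 5.0% against 4.2% of all genes, so the share of higher genes was near the background. Their median was 0.14. The 4 were Bik, the cell cycle inhibitor Cdkn1a, the membrane protein gene Perp, and Jak3, the kinase of common gamma chain cytokine receptors.

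Of 9 measured genes of the p53 list, 2 were called higher and 0 lower, where 4.2% of all genes were higher and 0.97% lower. The list was drawn up from p53 and its known targets, and Pmaip1 is a target too. A part of p53 in these ratios was not tested. Cdkn1a gave 2.64 and 1.49 (mean 2.07 ± 0.58, 4.19-fold higher) and Perp gave 1.24 and 1.11 (1.18 ± 0.07, 2.26-fold). The remaining 7 were not called, and the list's median was 0.21. At 1.5-fold on both arrays, 7.83% of all genes were higher and 2.93% lower. Of the 9, 3 were then higher (Apaf1, at 0.87 ± 0.05, joined Cdkn1a and Perp) and 1 was lower, the death receptor gene Fas at -0.74 ± 0.10. The rest were Zmat3 (0.69 ± 0.20), Mdm2 (0.21 ± 0.06), Gadd45a (0.10 ± 0.06), Trp73 (0.07 ± 0.40) and Tnfrsf10b (0.04 ± 0.24). Naming all 9 goes beyond the naming rule and was chosen after their values were seen. Trp53, the gene of p53 itself, was not analysed here.

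Downstream of the effectors, none of 10 genes of the apoptosome and mitochondrial release was called (median 0.22, against 0.0004 over all genes). The arrays were alike in sign for 8 of the 10, against 55.8% of all genes. Apaf1, the scaffold of the apoptosome, gave 0.82 and 0.91 (0.87 ± 0.05, 1.83-fold higher), and the executioner caspase gene Casp6 stood at 0.36 ± 0.10. None of 7 inhibitor of apoptosis genes was called. Their median was 0.27, but 0.17 on array 1 and -0.08 on array 2, with 3 of 7 alike in sign. Birc5, survivin, stood at 0.27 ± 0.11, Birc2 at 0.18 ± 0.07 and Birc3, outside the naming rule, at -0.17 ± 0.05. None of 13 death receptor genes was called (median 0.04, but 0.09 on array 1 and -0.13 on array 2, with 6 of 13 alike in sign). There Tnfsf10, the ligand TRAIL, gave 0.98 and 0.80 (0.89 ± 0.09), and Fas gave -0.84 and -0.64.

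Upstream, Jak3 was the one called gene among 16 survival cytokine receptors and kinases (median 0.21), at 1.18 and 1.16 on the arrays (1.17 ± 0.01, 2.25-fold higher). None of 18 transcription regulators of the family was called (median 0.005, with 7 of 18 alike in sign on the arrays). Myc, a factor able to drive both growth and death, was at -0.51 ± 0.06 and Runx1 at 0.44 ± 0.08. Of 3 genes of Mcl-1 turnover, none was called; Huwe1, a ligase that marks Mcl-1 for destruction, stood at -0.21 ± 0.08.

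The 5 genes closest to Pmaip1 in their 2 array values, by straight-line distance on the log2 scale over 4331 genes, were Id2, Ltbr, Tnfsf13b, Batf and Dstn. Id2, an inhibitor of helix-loop-helix factors, was nearest, at 1.94 and 2.03 (distance 0.05). Ltbr, the lymphotoxin beta receptor, followed at 2.07 and 2.05 (distance 0.16), then Tnfsf13b, the B cell survival factor BAFF, at 2.00 and 2.22 (distance 0.17). Batf, a transcription factor of T helper cells, gave 1.79 and 2.24 (distance 0.21), and Dstn, an actin-severing protein gene, gave 1.86 on each array (distance 0.22). Likeness over 2 arrays of 1 comparison means only that these ratios were close.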

How the data were processed

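RNA of LatY136F and wildtype CD4+ T cells was measured on 2 two-colour arrays. The deposited table gives a log ratio per probe and array, read as log10 because the highest value of array 1 is exactly 2, the log10 of 100; the base is likely and not certain. Scanner signals were not analysed here. The sources used here do not state background correction, normalization or direction of the authors' values, so scale, centring and direction stay unknown. Medians of the deposited log10 ratios were -0.0033 and 0.0070. Values were multiplied by 3.32 to give log2, array 2 was turned, and the median of each array was subtracted. In the platform annotation 4654 probes had 1 symbol, 73 had several and 3287 had none; 4640 of the 4654, including all 9 member probes, matched the RefSeq gene table (GRCm38.p6) by identifier. Probes of a gene were averaged. A gene was called at 2-fold or more the same way on both arrays. Calling was tested on simulated data. Members, lists and alternatives were chosen with earlier results of these data known.

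The text names all 10 members, the measured genes of the other Bcl2 family, Bnip, T helper 2 and CD4 lists (for CD4, 4 are printed), and per further list the called genes, or else the 2 furthest from 0 with 1 sign on both arrays, and the 5 genes nearest the strongest member. Marker lists of other cells are given as counts and medians. Python 3.11.15, numpy 2.4.6, pandas 2.3.3 and matplotlib 3.10.9 were used. The alternatives were no centring, each array alone, the strongest probe, equal scale, a log2 reading, the turned direction, other thresholds and the mean over a role.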

Additional observations from a re-analysis of the deposited data

How the results depend on the processing

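The single call, Pmaip1 higher, was kept without centring, with the strongest probe per gene, with arrays scaled alike, at 1.5-fold and at 2-fold on the mean. Turning the direction reverses Pmaip1 to -1.99, giving 0 members higher and 1 lower, a survival median of 0.39, 0 higher and 4 lower pathway genes, and 42 higher and 182 lower of all genes. Read as log2, the table gives 0 members higher (Pmaip1 at 0.60), a survival median of -0.12, 0 pathway genes higher, and 13 higher and 0 lower of all genes, so the folds depend on the log10 reading. Without centring the survival median was -0.41. By means over members the survival value was -0.45 and the BH3-only value 0.42, the latter carried by Pmaip1. Single arrays called 1 to 2 members higher (Bak1 on array 2) and 0 to 1 lower (Bak1 on array 1), 6 to 8 pathway genes higher, and 341 to 408 higher and 145 to 151 lower of all genes, since a call then needs 1 array only. At 1.5-fold on both arrays, 9 pathway genes were higher and 1, Fas, lower, and 339 and 127 of all genes; at 2-fold on the mean 7 pathway genes were higher. The strongest probe put Bcl2 at -0.93. Of the 56 alternatives for single members, 43 moved the value by less than 1 SD of the 2 array values, as either array alone must by construction. The strongest probe could not move a member with 1 probe. For Bak1 and Bid the SD (2.25 and 0.82) was so wide that even turning the direction stayed within it. The count of 43 therefore says little of how firm the values are. LatY136F and wildtype RNA shared each array, so each ratio already pairs the genotypes. No further pairing was possible because the series holds 1 group of ratios and no other group to pair it with. With 2 arrays and no probe signals, differences as small as those of the survival genes cannot be set against a spread between animals.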

Other observations

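Genes outside the naming rule, picked after their values were seen, showed the widest disagreement between the arrays among the 80 measured pathway genes. For 4 of the 80 (5.0%, against 4.06% of all genes) the arrays lay 1 log2 unit or more on either side of their mean. Casp9, the initiator caspase of the apoptosome, gave 2.36 on array 1 and -0.27 on array 2. Xiap, an inhibitor of caspases, gave -0.99 and 2.27. Naip5 and Naip2, sensors of bacterial proteins that belong to the same family as Xiap, gave 2.57 and -0.08, and 2.15 and -0.21. Whether the probes of these related genes share target RNA was not tested. None of the 4 has a direction here.

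Of the 16 measured survival cytokine receptors and kinases, 4 passed 1.5-fold on each array as higher and 0 as lower, where 7.83% of all genes were higher and 2.93% lower. Besides Jak3 these were, named after their values were seen, Akt1 (0.66 ± 0.06), Akt2 (0.79 ± 0.13) and Pim3 (1.01 ± 0.28).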
